A study of Mus musculus with 14 samples.

Results

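Immediate early response genes are genes that cells can switch on within minutes of a stimulus without first making new protein. The 10 studied here were Fos, Fosb, Jun, Junb, Egr1, Atf3, Ier2, Dusp1, Btg2 and Zfp36, chosen by symbol from the 17552 genes of a table of expected counts for mouse liver. The table holds 1 value per gene for each of 2 groups, the sum over 7 libraries. Both groups were male Apoe-deficient C57BL/6 mice (C57BL/6J background in the study's methods) labelled as 8 weeks of age and as fed a Western diet for 8 weeks. This diet stood alone in the control group and carried erythrodiol, a triterpene alcohol of olive oil, in the other, in an amount that gave a dose of 10 mg per kg of mouse. The study's methods give a longer feeding period than the labels, and describe a fast of some hours before the animals were killed. Each library was a pool of RNA from a few mice. Apoe itself, the gene deleted in both groups, had 9403 control and 8293 erythrodiol counts in the pooled values, which cannot check any single library.

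Signals from growth factor receptors, stress and inflammation reach these genes through MAP kinases, which act on serum response factor with its Elk partners and on CREB and ATF proteins already bound at the promoters. Many of the products are transcription factors, and Fos and Jun proteins pair as the factor AP-1. Others, such as Dusp1, Zfp36 and Btg2, restrain the kinases or remove short-lived mRNAs and so help to end the response. In liver the group is known for its rise after partial hepatectomy, in the acute phase response and during handling of the tissue.

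The promoters of 4 members are shown because they belong to both genes of the negative feedback arm with the higher erythrodiol values, Zfp36 and Dusp1, to the third gene of that arm, Btg2, and to Fos, the best known gene of the class. The RefSeq promoter table, on build GRCm38.p6, held 8 of the 10 members, and had no entry for Egr1 or Ier2. Each sequence is the 250 bases before the start site of that table, written 5′ to 3′ on the strand of the gene. The regions are chr7:28379229-28379478 on the minus strand for Zfp36, chr17:26508473-26508722 on the minus strand for Dusp1, chr1:134079156-134079405 on the minus strand for Btg2 and chr12:85473640-85473889 on the plus strand for Fos. Capitals mark matches, on either strand, to the cAMP response element TGACGTCA, its shorter core TGACG, the AP-1 element TGANTCA, the TATA letters TATAAA, the EGR letters GCGGGGGCG and the CArG box, the core of the serum response element.
Zfp36: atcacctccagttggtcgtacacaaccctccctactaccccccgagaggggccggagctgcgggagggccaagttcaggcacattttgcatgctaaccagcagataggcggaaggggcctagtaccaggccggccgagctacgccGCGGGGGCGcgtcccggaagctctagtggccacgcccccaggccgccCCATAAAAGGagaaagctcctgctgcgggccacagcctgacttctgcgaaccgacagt
Dusp1: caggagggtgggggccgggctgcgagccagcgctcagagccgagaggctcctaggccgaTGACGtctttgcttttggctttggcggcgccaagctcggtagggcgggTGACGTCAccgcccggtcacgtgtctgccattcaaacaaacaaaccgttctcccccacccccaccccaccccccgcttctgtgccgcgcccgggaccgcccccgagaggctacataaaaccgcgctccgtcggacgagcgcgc
Btg2: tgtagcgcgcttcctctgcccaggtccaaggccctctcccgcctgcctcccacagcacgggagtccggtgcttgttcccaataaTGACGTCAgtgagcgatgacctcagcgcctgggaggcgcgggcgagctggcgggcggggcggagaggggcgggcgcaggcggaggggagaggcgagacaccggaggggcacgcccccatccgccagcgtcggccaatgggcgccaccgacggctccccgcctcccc
Fos: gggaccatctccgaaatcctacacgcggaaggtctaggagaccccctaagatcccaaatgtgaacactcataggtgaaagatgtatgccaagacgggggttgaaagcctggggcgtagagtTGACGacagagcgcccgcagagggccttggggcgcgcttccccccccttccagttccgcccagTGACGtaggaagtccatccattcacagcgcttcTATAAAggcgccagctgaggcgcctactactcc

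Each full cAMP response element also holds the shorter core. The full element stood in Dusp1, 143 bases before the start, and in Btg2, 166 bases before the start, which makes 2 of the 8 members against 1.55% of 32851 promoters of the same length. The shorter core was found in 6 of the 8, in Btg2, Atf3, Fosb, Junb, Fos and Dusp1, against 17.8% of all promoters. Zfp36 had a CArG box 58 bases before the start, 1 of the 8 members against 1.47% of promoters. The EGR letters were in Zfp36 and Fosb, 2 of the 8 against 2.57%. The start site used for Fosb lies inside the annotated gene, so that 73 bases of its window, with both its matches, are within the gene. Fos was the member with the TATA letters, which 12.4% of all promoters hold. The AP-1 element was in 0 of the 8 windows, against 6.75%, which says only that these letters are not in these windows. The printed Zfp36 and Dusp1 sequences thus shared no full motif of this set, since Zfp36 had the CArG box and the EGR letters and Dusp1 the cAMP response element and the shorter core.

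Levels were set on a per-length scale, as counts per kilobase of transcript per 1000000 counts of the group. On this scale Zfp36 was the most abundant member in both groups, at 36.7 in control and 50.01 in erythrodiol liver, and Fosb the least, at 0.207 and 0.208. Junb followed Zfp36, at 24.2 and 23.3. The control order then ran through Ier2 at 12.3, Egr1 at 11.6, Dusp1 at 8.11, Jun at 7.78, Btg2 at 4.89, Atf3 at 3.05 and Fos at 1.22. Among neighbours in that order, the 95% counting intervals overlapped for Ier2 and Egr1 and for Dusp1 and Jun, and not for the other pairs. In erythrodiol liver Egr1, at 15.6, stood above Ier2, at 11.8, and no neighbouring pair had overlapping intervals. These intervals are exact for a Poisson count and cover counting error only, because no spread between libraries can be had from 1 value per group.

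**Figure D1:**
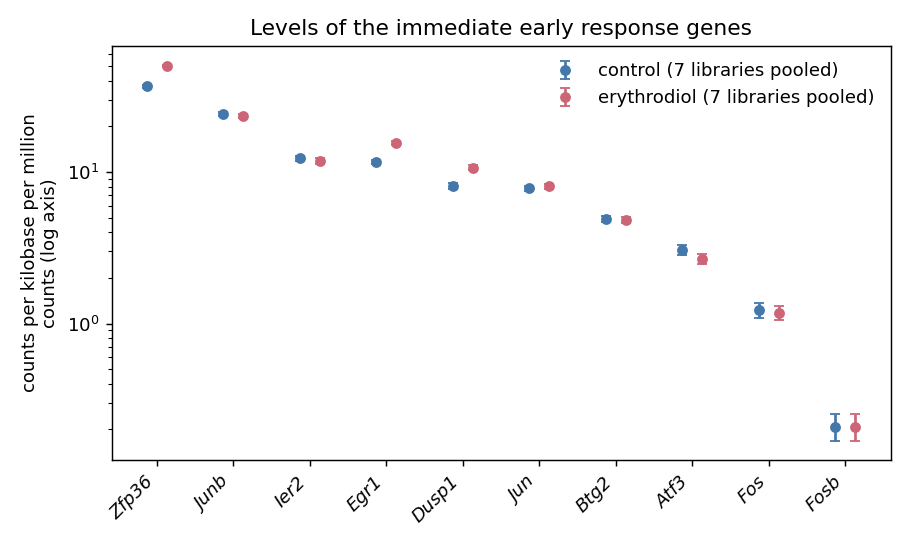
Level of each member in the 2 groups, as counts per kilobase per 1000000 counts on a log axis, ordered by the control level. Points are the pooled value of 7 libraries and bars the exact 95% counting interval; Zfp36, Egr1 and Dusp1 are the genes whose erythrodiol point lies visibly above the control point.

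The order of levels placed these genes across a wide range of the liver transcriptome. Of all genes in the table, 91.2% had a lower control level per length than Zfp36 and 87.5% a lower one than Junb. The corresponding share was 41.1% for Fos and 26.3% for Fosb. All 10 members had at least 100 counts in the groups together, the limit used below for any ratio, and Fosb came closest to it with 96 control and 98 erythrodiol counts.

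With each group scaled to its total counts, 0 of the 10 members were at least 1.5-fold lower in erythrodiol liver and 0 were at least 1.5-fold higher. Among the 13291 genes with at least 100 counts, 3.14% passed the lower and 2.55% the higher bound. At a smaller bound, a log2 ratio of 0.32, 3 of the 10 were higher, Zfp36, Egr1 and Dusp1, beside 24.4% of all genes, and 0 were lower, beside 8.89%. This count depended on the scaling: with the all-gene median set to 0, a check made after the values were seen, 0 members were higher, beside 6.31% of all genes, and 1, Atf3, was lower, beside 16.6%. At 2-fold the members again gave 0 in both directions, against 0.549% lower and 0.218% higher among all genes. With 10 genes, 1 gene is 10% of the set, and none of these counts stood far from the background. The median log2 ratio over the 10 was -0.01, and that over all 13291 genes was 0.16. Read against the all-gene median, 3 members lay above it and 7 below.

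Of the 3 genes past the smaller bound, which 24.4% of all genes passed, Zfp36 and Dusp1 belong to the feedback arm. Zfp36 encodes tristetraprolin, a protein that binds AU-rich elements of cytokine and other short-lived mRNAs and brings about their decay. It had 7951 counts in control and 11005 in erythrodiol liver, and the log2 ratio was 0.45, with 0.41 and 0.49 as the ends of its counting interval; later intervals are given in parentheses. Zfp36 lies at chr7:28376784-28379228, and 91.1% of all genes with at least 100 counts had a lower ratio. Dusp1 encodes a nuclear phosphatase that inactivates MAP kinases. It rested on 1946 and 2603 counts, a log2 ratio of 0.40 (0.31 to 0.48), above 86.1% of all genes. Btg2, an antiproliferative protein that recruits the deadenylase complex to mRNA, differed from both, with 1851 and 1842 counts and a log2 ratio of -0.03 (-0.12 to 0.07). The counting intervals of Zfp36 and Dusp1 therefore did not overlap that of Btg2. Summed over these 3 genes the counts went from 11748 to 15450, a log2 ratio of 0.37. Most of the added counts were those of Zfp36, and this grouping was not among the planned comparisons. Other genes with feedback roles went both ways, among them Errfi1 at 0.51 and Socs3 at -0.33.

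Egr1, a zinc finger transcription factor that binds GC-rich sites, was the third gene past that smaller bound. It had 4368 control and 5960 erythrodiol counts, with a log2 ratio of 0.43 (0.37 to 0.48), above 89.2% of all genes. Its counting interval overlapped those of Zfp36 and Dusp1, so the 3 ratios could not be ordered, also without the spread between libraries. As ratios they were 1.36 for Zfp36, 1.34 for Egr1 and 1.32 for Dusp1.

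The 4 AP-1 subunits lay close to 0. Fos had 316 and 309 counts and a log2 ratio of -0.05 (-0.28 to 0.18). Fosb, its close relative, had a log2 ratio of 0.01. With so few counts its interval ran from -0.41 to 0.43 and overlapped those of Zfp36, Egr1 and Dusp1. Jun rested on 3047 and 3197 counts, a log2 ratio of 0.05 (-0.02 to 0.12). Junb, often an antagonist of Jun at AP-1 sites, had 5465 and 5354 counts, a log2 ratio of -0.05 (-0.11 to 0.00). Together the 4 subunits summed to 8924 control and 8958 erythrodiol counts, a log2 ratio of -0.02. For Fos, Jun and Junb the counting intervals leave out a log2 difference of 0.32 in either direction in these pooled libraries, while that of Fosb does not.

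Seen per length over the 7 genes of the Fos and Jun families, AP-1 mRNA in this liver was mostly of the Jun kind. Jun, Junb and Jund made up 93.7% of the family total in control and 93.0% in erythrodiol liver. Jund, which many cells express at a steady level, held 41.2% and 41.7% of the total, Junb 39.7% and 38.1%, and Jun 12.8% and 13.1%. Of the Fos family, Fosl2 was at 3.92% and 4.73%, Fos at 2.01% and 1.92%, and Fosb at 0.340% and 0.339%. Fosl1 had 1.13 and 6.51 expected counts, too few for a ratio. The make-up of AP-1 mRNA differed by at most a few percentage points between the groups, with no replicate error to set it against.

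Ier2 and Atf3 completed the set. Ier2, a nuclear protein that growth factors induce early, had 2328 and 2265 counts and a log2 ratio of -0.06 (-0.14 to 0.02). Atf3 is a stress-induced factor of the ATF family that represses many promoters as a homodimer. It stood at the low end, with 743 control and 656 erythrodiol counts and a log2 ratio of -0.20 (-0.35 to -0.05). Atf3 was the member with the lowest ratio, 0.87, and 14.4% of all genes had a lower one.

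**Figure D2:**
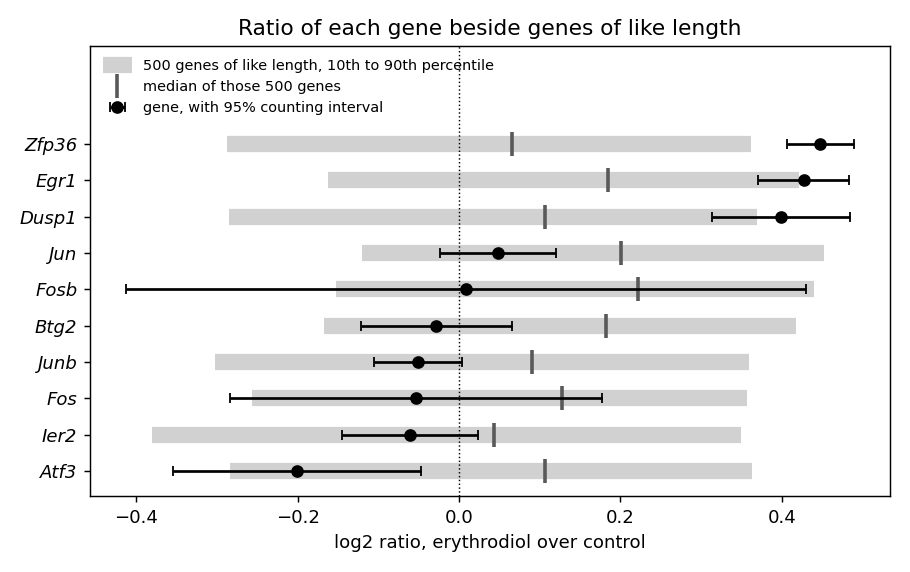
Log2 ratio of erythrodiol over control for each member (black points, with the exact 95% counting interval), over the 10th to 90th percentile (grey bars) and the median (dark ticks) of the 500 genes nearest in length. Zfp36, Egr1 and Dusp1 lie past the upper end of their grey bars, and the other 7 lie to the left of the median tick, within the bars.

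The ratio of a gene in this table moved with its length, so each member was set beside the 500 genes of nearest length, members left out. The medians of these neighbours ranged from 0.04 for Ier2, whose transcript is 1541 bases long, to 0.22 for Fosb, at 3783 bases. Relative to its neighbours Zfp36 was 0.38 higher on the log2 scale, Dusp1 0.29 and Egr1 0.24. Of the genes of like length, 94.6% had a lower ratio than Zfp36, 91.8% a lower one than Dusp1 and 90.4% a lower one than Egr1. Thus 3 members stood above their neighbours' median.

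The other 7 stood below it. The difference was -0.10 for Ier2, -0.14 for Junb, -0.15 for Jun, -0.18 for Fos, -0.21 for Btg2 and for Fosb, and -0.31 for Atf3. Of the genes of like length, the share with a lower ratio was 14.4% for Atf3 and 35.8% for Ier2, the ends of the range of these 7. All 7 were inside the 10th to 90th percentile of their neighbours. With the 500 genes nearest in counts in place of length, an alternative added after the values were seen, the same 3 members stood above and the same 7 below, from 0.25 for Zfp36 to -0.32 for Atf3, with Fosb at -0.01. Against those genes the 3 no longer passed the 90th percentile, as 89.6% had a lower ratio than Zfp36, 86.6% than Dusp1 and 85.6% than Egr1.

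**Figure D3:**
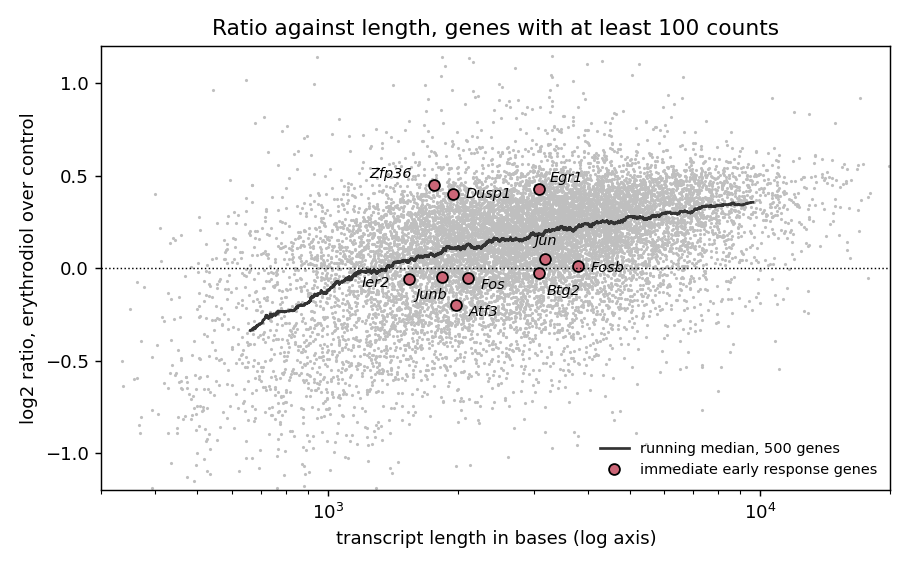
Log2 ratio against transcript length (log axis) for genes with at least 100 counts (grey), with the running median over 500 genes (line) and the 10 members (coloured points); genes beyond the drawn range are left out. Zfp36, Dusp1 and Egr1 lie above the line, which climbs with length, and the other members below it.

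Because the table pools 7 libraries, a ratio of this size need not be shared by all of them. If 6 erythrodiol libraries of equal depth were at the control level, 1 library at 3.55 times that level would give the pooled ratio of Zfp36. The same reckoning gives 3.41 times for Egr1 and 3.23 times for Dusp1. For Atf3 it gives 1 library at 0.0913 times the control level. A control library away from the rest could also give such ratios, and that was not reckoned. Whether the values of these 4 genes were even across libraries was not tested, as the values are pooled. The depth of the pools was nearly even in the erythrodiol group, where a library held 13.9% to 14.6% of the gene-mapped read pairs, and less so in the control group, at 9.12% to 17.3%. The libraries had 34856340 to 55244294 clean reads in control and 47669656 to 48058606 in erythrodiol liver. In 1 control library 76.7% of reads mapped to the genome, against a control median of 94.4%, and its part in the members' values was not tested.

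Relatives of the members were compared in families, chosen after their values were seen. In the family of Zfp36, the RNA-binding paralogs Zfp36l1 and Zfp36l2 had log2 ratios of 0.39 and 0.20, both positive like Zfp36. Zfp36l1 went from 20214 to 26836 counts. Among relatives of Egr1, Egr2 was at -0.06 (-0.32 to 0.21) on 240 and 234 counts. Egr3 was at -0.31 (-0.71 to 0.08) on 121 and 99 counts. These counting intervals include 0, and the spread between libraries is not known. The counting interval of the Egr3 ratio, 0.61 to 1.06, did not reach that of Egr1, 1.29 to 1.40. Among the dual specificity phosphatases, Dusp4 was at -0.18 (-0.42 to 0.07), below the interval of Dusp1. Dusp2, at -0.12 (-0.56 to 0.32), and Dusp5, at -0.06 (-0.47 to 0.35), had intervals that overlapped it. Dusp6, a cytoplasmic phosphatase of the same family, had 5069 and 5143 counts and a ratio of 1.00 (0.96 to 1.04). Btg1, the paralog of Btg2, was at 0.13.

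A wider list held 47 other immediate early genes, of which 44 had at least 100 counts. Their median log2 ratio was 0.06, beside 0.16 over all genes, and 29 of the 44 lay below that all-gene median. At 1.5-fold, 3 of the 44 were higher and 0 lower, beside 2.55% and 3.14% of all genes. The 3 higher were Plk3, a polo-like kinase of the stress response, Per1, a clock repressor that many signals induce quickly, and Myc, a transcription factor of growth. Plk3 went from 3252 to 6193 counts, a log2 ratio of 0.91 (0.85 to 0.97). Per1 had 2363 and 3820 counts, a log2 ratio of 0.67, and Myc 937 and 1433, a log2 ratio of 0.59.

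The genes of this list with the most counts were Errfi1, Zfp36l1, Mcl1, Jund, Zfp36l2 and Btg1. Errfi1, a feedback inhibitor of the EGF receptor, had 74584 control and 107912 erythrodiol counts, a log2 ratio of 0.51. Mcl1, which protects cells from apoptosis, was at 0.05 and Jund at 0.03. The lowest ratio of the list was that of Socs3, the feedback inhibitor of interleukin 6 signalling, at -0.33 on 2229 and 1799 counts. Socs3, and the genes named below from lists where few passed the bound, were picked after their values were seen.

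**Figure D4:**
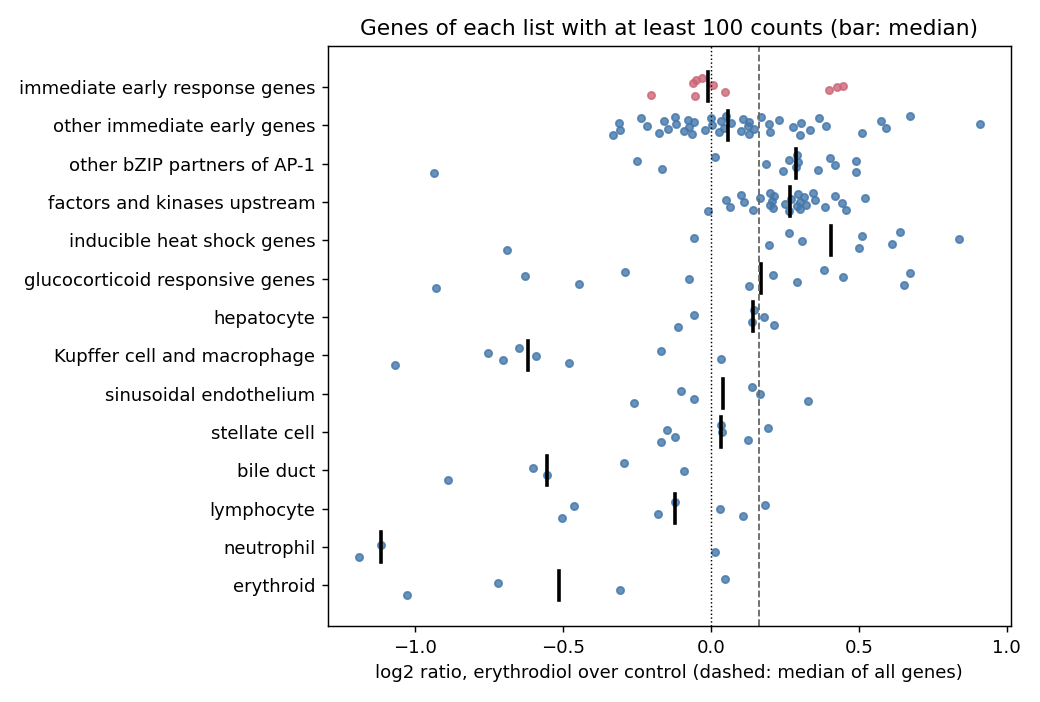
Log2 ratios of the 10 members (top) and of the genes of each list with at least 100 counts, 1 point a gene, with the median as a bar and the median of all genes, 0.16, as a dashed line. The members gather near 0 with 3 genes at 0.40 to 0.45. Lists of upstream factors and of bZIP partners sit higher and macrophage markers lower, with length not taken into account.

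The factors and kinases that act on immediate early promoters had a median log2 ratio of 0.27, and 27 of the 28 were above 0, beside 71.2% of all genes. Against the all-gene median 22 of the 28 lay above. None of the 28 passed 1.5-fold in either direction. The highest was Elk4, a partner of serum response factor, at 0.52, and the lowest Map2k1, a kinase that activates MAP kinases, at -0.01. Srf was at 0.20 and Creb1 at 0.21. Mapk14, which encodes p38 alpha, was at 0.38. The transcripts of the 28 ran from 1772 bases for Mapk3 to 11330 for Braf. The ratio moved with length, and no list other than the members was set beside genes of like length. The bZIP proteins that can pair with or replace AP-1 subunits had a median of 0.29 over 15 genes. Of these Batf, expressed in immune cells, was at least 1.5-fold lower, with 115 and 61 counts and a log2 ratio of -0.94 (-1.41 to -0.48). By that much 0 were higher. Of all genes, 3.14% were lower and 2.55% higher by that much.

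Stress and hormone responses that often accompany immediate early genes were mixed. Of 10 inducible heat shock genes, 3 were at least 1.5-fold higher and 1 lower, with a median of 0.41. The shares of all genes were 2.55% higher and 3.14% lower, here and for the next list. Hspa1b, a major inducible Hsp70 gene, was at 0.84, Hsph1 at 0.64 and Hspb1 at 0.61. Hspe1, the mitochondrial co-chaperonin, was the lower gene at -0.69. Hspa1a and Hspa1b are nearly identical and their fractional counts show reads split between them, so their separate values are uncertain. Of 12 glucocorticoid responsive genes, 2 were higher, Per1 and Pck1, the latter at 0.65, and 2 lower, the metallothioneins Mt1 at -0.63 and Mt2 at -0.93. The median of those 12 genes was 0.17, close to the 0.16 of all genes.

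Immediate early genes are expressed in hepatocytes and in the other cells of the liver. In RNA from whole tissue, fewer cells of a type and less RNA per cell cannot be told apart. All 6 hepatocyte markers were present, with a median log2 ratio of 0.14. Of the 8 markers of Kupffer cells and macrophages, 5 were lower in erythrodiol liver by at least 1.5-fold, beside 3.14% of all genes. The log2 ratios of these 5 were -1.07 for Marco, -0.75 for Adgre1, -0.70 for Cd5l, -0.65 for Clec4f and -0.59 for Vsig4. The others were Timd4 at -0.48, Csf1r at -0.17 and Cd68 at 0.04. The summed counts of these 8 went from 123380 to 82400, and none was at 0 in either group. Of 6 neutrophil markers 3 had at least 100 counts. These were S100a8 at -1.19, S100a9 at -1.11 and Csf3r, the one with the most counts, at 0.01. Under 100 counts were Mpo with 13 control and 3 erythrodiol counts, Elane with 24 and 14, and Ly6g with 39.0 and 45.5. Bile duct markers summed to 14309 and 9858 counts, of which Spp1 alone had 12503 and 8363. Of these 5 genes 2 were lower by at least 1.5-fold, Krt19 at -0.89 and Spp1 at -0.60, beside 3.14% of all genes. The others were Epcam at -0.55, Krt7 at -0.29 (-0.62 to 0.03) and Sox9 at -0.09 (-0.22 to 0.04). Erythroid markers summed to 127203 and 93113 counts. Of these 4 genes 2 were lower by at least 1.5-fold, Hbb-bt at -1.03 and Hbb-bs at -0.72, beside the same 3.14% of all genes. Hba-a1 was at -0.31. These globin genes are copies that share reads among them. Alas2, the erythroid marker that is not a globin gene, was at 0.05. Lymphocyte markers had a median log2 ratio of -0.12 over 7 genes, stellate cell markers 0.04 over 7 and sinusoidal endothelial markers 0.04 over 6. The 5 pancreatic acinar markers were all under 100 counts, with sums of 44 and 89. The part of these cell type markers in the members' values was not tested.

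At the level of transcripts, Dusp1 was the member to which the study's assembly added new coding isoforms, 2 in number. New coding isoforms were added to 28.5% of the genes of the table, so 1 of 10 is below that share. Both Dusp1 isoforms lie at chr17:26505591-26508472 on the minus strand. The first had 2 exons, with introns 1 and 3 of the annotated 4-exon coding transcript, of 237 and 334 bases, inside its exons. The second had 3 exons and kept intron 1. Thus both read through the first intron of the phosphatase gene, and no count of each isoform was used here. None of the 16 splicing events listed between the groups was in a member. The search covered skipped exons, retained introns, mutually exclusive exons and alternative 3′ sites, and other kinds were not searched. With 16 events over the 17552 genes of the table, 0 of 10 members says nothing particular about the members.

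The counts of all 10 members were whole numbers in both groups as deposited, at a tolerance of 0, and no other annotated RefSeq gene overlapped any of them on either strand. Other scalings shifted the ratio of every gene by the same amount. Under the 4 other scalings of the groups, Zfp36 stayed between 0.28 and 0.43, Egr1 between 0.26 and 0.41 and Dusp1 between 0.24 and 0.39, while Atf3 stayed between -0.36 and -0.21. Jun and Fosb changed sign. All 4 scalings lowered the ratios, so a member already below 0 could not change sign. The counting intervals of Jun, Fosb, Fos, Junb, Ier2 and Btg2 include 0, so no direction is given for them.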

How the data were processed

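Liver poly(A) RNA was sequenced in 14 libraries, 7 per group. Per the study's methods the authors mapped reads to the genome with HISAT, assembled new transcripts with StringTie and Cufflinks, and counted reads against the transcripts with Bowtie2 and RSEM; tool versions were not given in the sources used here, and neither was strand use. The deposited gene table gives 1 expected count per gene and group, matching in total the gene-mapped read pairs of all 7 libraries, so no library values, replicate error or test were available here. Its columns of log2 ratio, p and q from the authors' own comparison were not used. The deposited mapping summaries give a count of clean reads and the percent of reads mapped for each library. Build GRCm38 follows from the sequence names of the deposited new transcripts.

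Ratios are erythrodiol over control with each column divided by its total, 122889032 and 124686047 counts. Intervals are exact 95% Clopper-Pearson intervals from counts rounded to whole numbers, and levels per length have exact Poisson intervals. They cover counting error only. A sum of 100 counts over both groups was required for a described ratio. Genes of like length were the 500 nearest in the table's length column. From each list, genes past 1.5-fold were named, at most 6 of the largest, and from the other immediate early genes also the 6 with most counts; every member was named. Promoter windows were searched on both strands. The calculation was tested on simulated Poisson counts with no spread between libraries, so that test cannot speak to such spread. The members and lists were chosen with earlier results of these data known. Scripts ran in Python 3.11.15 with scipy 1.17.1 for intervals, pandas 2.3.3 and numpy 2.4.6, and figures used matplotlib 3.10.9.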

Additional observations from a re-analysis of the deposited data

Results flagged for a closer look

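Control replicate 3 lay far from the other 6 control libraries in the share of reads mapped to the genome, 76.7%, and in the share mapped to genes, 64.3%. Its gap to the nearest control library, divided by the range of the 7, was 0.852 for the genome and 0.588 for genes. Both exceeded Dixon's 95% critical value of 0.568 for 7 samples. Chance flags about 1 in 20 groups for each measure tried. Clean reads, both mapped shares and the share of the group's read pairs were screened in both groups. The members' values are pooled, so none was recomputed without this library.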

How the results depend on the processing

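Setting the all-gene median to 0 lowered every log2 ratio by 0.16 and the members' median from -0.01 to -0.17. The upper quartile of counts gave -0.17 and totals without the 100 genes of most counts -0.12, each by construction the same shift for all genes. Clean reads of the libraries gave -0.02, 1 added count -0.01, and the 9 members without Fosb, added after the values were seen, -0.03. The count of members past 1.5-fold stayed at 0 in both directions under these scalings. With the smaller bound, a log2 ratio of 0.32, it was 3 higher, beside 24.4% of all genes. The scalings at that bound were added after the values were seen: the all-gene median and the upper quartile each gave 0 higher and 1 lower, and totals without the 100 genes of most counts gave 1 higher and 0 lower. Under these scalings, in that order, 6.31%, 6.21% and 10.5% of all genes were higher and 16.6%, 16.6% and 13.6% lower. Against genes of like length 3 members stood above with 200 or 1000 neighbours, with at least 10 or 1000 counts, and with genes nearest in counts. No paired analysis was possible because the gene values are 1 per group, and for the same reason no library was left out in turn. Depth limited Fosb most, at 96 and 98 counts.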
